A study of Mus musculus with 25 samples.

Results

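H3K9me3 peaks at mouse zinc finger genes that lie outside 3 very large gene clusters were examined in regenerating myofibers. A peak was taken when the authors had assigned it to a gene named Zfp with a number, Zscan, Zkscan or Zik on chromosomes 1 to 19, and when it fell outside the 3 cluster windows on chromosomes 2, 4 and 13. The 12 H3K9me3 lists held 1551 such peaks (called zinc finger peaks here) at 140 genes, of 20998 H3K9me3 peaks and of 55242 peaks of both marks in the series. The other 13712 H3K9me3 peaks on the same chromosomes and outside the same windows (called other peaks) served as the comparison. A further 1209 peaks at 32 genes of such names lay inside the windows and were left out.

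The genes were taken to be dispersed, but most of their peaks were not. When zinc finger peaks within 1 Mb of each other were joined into blocks there were 62 blocks, and the 7 with the most peaks held 1061 peaks (68.4%). Chromosome 17 alone carried 565 peaks (36.4%) and chromosome 7 carried 273 (17.6%). Blocks with a single gene numbered 38 and held 156 peaks (10.1%). The peaks are therefore described as lying at zinc finger genes outside the 3 windows.

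Every mouse carried Pax7-Cre(ERT2), a driver used in muscle stem cells. A mito-Dendra2 reporter marked recombined cells and the fibers they form. All 4 genotypes received tamoxifen (75 mg/kg daily for 5 days), and 50 µL of 1.2% BaCl2 was injected into the tibialis anterior 2 days later. Fibers positive for Dendra2 were collected 14 days after the injury. Groups were wild-type, mfn2-/- (no mitofusin 2, a protein of mitochondrial fusion), vhl-/- (no VHL, which marks HIF1α for degradation) and HIF1dPA (HIF1α that escapes degradation), with 3 H3K9me3 libraries each, described by the study as biological replicates. The alleles are removed or switched on only where Pax7 drove Cre, so nuclei of cells without that history keep their original alleles. Mouse ages are not given in the labels.

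H3K9me3 is a histone mark of constitutive heterochromatin. Most mouse genes with these names encode proteins with arrays of C2H2 zinc fingers, which contact DNA, and many also carry a KRAB domain, which recruits TRIM28 and the H3K9 methyltransferase SETDB1 to the bound site. The fingers of such a gene are usually encoded together in its long last exon, and in several cell types H3K9me3 is known to cover this 3' part of the gene while the start stays free of it.

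Each list held 887 to 3176 H3K9me3 peaks, of which 679 to 2179 were on chromosomes 1 to 19 outside the windows (called eligible). Peaks were called library by library, and the lists carry a score, which is 10 times the negative log10 of the caller's p-value and starts at 50. Read totals are not in the lists, so the depth of each library is unknown, and a missing peak means only that none passed the caller's cutoff. No H3K9me3 peak was assigned to any of 10 myofiber genes such as Acta1 and Ckm. Single marker genes of stem cells (Calcr, 2 peaks), endothelium (Cdh5), macrophages (Adgre1) and fibroblasts (Dcn, each 1 peak) had one. These markers do not measure the cell makeup of a library. Of 25301 genes without a zinc finger name in the RefSeq promoter table, 2226 had an H3K9me3 peak. The absence at 10 myofiber genes is therefore not read as a result.

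The start regions of the 4 genes ranked first by number of libraries and score that have an entry in the RefSeq promoter table (GRCm38.p6, the assembly that mm10 follows) are shown because H3K9me3 was not found over them, although each gene had a peak in all 12 libraries. Each run is written 5' to 3' on the gene's strand, from 250 bases before to 50 after the annotated start, with CG dinucleotides in capitals.
Zfp97 (chr17:17121133-17121432, + strand): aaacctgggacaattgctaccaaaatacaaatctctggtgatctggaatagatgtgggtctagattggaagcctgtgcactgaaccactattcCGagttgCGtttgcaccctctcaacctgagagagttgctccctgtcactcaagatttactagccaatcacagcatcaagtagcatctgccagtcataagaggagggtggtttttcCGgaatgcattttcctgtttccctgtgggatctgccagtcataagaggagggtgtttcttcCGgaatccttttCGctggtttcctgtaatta
Zfp936 (chr7:43177340-43177639, + strand): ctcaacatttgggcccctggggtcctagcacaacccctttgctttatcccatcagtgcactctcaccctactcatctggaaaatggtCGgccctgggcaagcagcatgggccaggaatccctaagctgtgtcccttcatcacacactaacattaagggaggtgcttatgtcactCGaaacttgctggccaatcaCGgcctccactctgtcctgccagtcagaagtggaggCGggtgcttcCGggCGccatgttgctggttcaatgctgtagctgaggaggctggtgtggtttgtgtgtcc
Zfp873 (chr10:82047873-82048172, + strand): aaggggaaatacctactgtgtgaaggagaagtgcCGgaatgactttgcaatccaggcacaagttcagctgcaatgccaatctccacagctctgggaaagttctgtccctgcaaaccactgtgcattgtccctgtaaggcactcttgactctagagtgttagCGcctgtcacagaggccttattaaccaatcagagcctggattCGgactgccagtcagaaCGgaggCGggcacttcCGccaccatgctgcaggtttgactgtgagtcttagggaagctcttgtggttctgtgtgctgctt
Zfp944 (chr17:22361351-22361650, - strand): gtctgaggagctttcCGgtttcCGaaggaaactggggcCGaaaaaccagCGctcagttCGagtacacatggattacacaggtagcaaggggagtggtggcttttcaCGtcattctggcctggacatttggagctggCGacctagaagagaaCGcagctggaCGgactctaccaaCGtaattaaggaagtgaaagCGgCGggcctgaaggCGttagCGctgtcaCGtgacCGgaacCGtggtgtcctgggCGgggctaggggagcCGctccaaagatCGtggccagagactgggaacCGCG
The first 3 windows held 5 (Zfp97), 6 (Zfp936) and 6 (Zfp873) CG dinucleotides and the Zfp944 window held 22. RefSeq lists another start window for Zfp873, which also had no peak.

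Over all genes of these names outside the windows, 378 start windows of 308 genes could be read. A single window, that of Zfp951, was overlapped by an H3K9me3 peak, in 1 library. That is 0.265% of the windows, beside 85 of 30855 windows (0.275%) of all other genes on chromosomes 1 to 19. Start regions were thus almost never covered in either set. Among genes with a peak somewhere, 1 of 143 windows (0.699%) was covered for zinc finger names and 56 of 2694 (2.08%) for other genes, which is given as a description. Start windows of zinc finger names held a median of 15 CG dinucleotides (quartiles 9 and 22), compared with 7 for all 32851 RefSeq windows. The 36 windows of genes with peaks in 9 or more libraries had a median of 10, and the 235 windows of genes with no peak in any library had 17. The letters ACGTG, a core that HIF factors bind, were found on either strand in 81 of the 378 windows (21.4%), and in 19.6% of all windows. Of the 36 windows of genes in 9 or more libraries, 13 (36.1%) held them, which is given with no test. These 36 windows come from 31 genes, and overlapping windows were counted separately. Among those that held the letters, windows overlapped within Zfp958 and within Zfp951, between Zfp942 and Zfp943, and between Zfp944 and Zfp758. The shares are therefore not read as a difference.

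The clearest feature of the zinc finger peaks was their place in the last exon. Of the 1551 peaks, 192 (12.4%) were annotated to the final exon of a transcript and 221 (14.2%) to a 3' UTR. Among other peaks the same classes held 116 (0.846%) and 112 (0.817%) of 13712. The last exon share of zinc finger peaks was 8.79%, 14.7% and 12.2% in wild-type libraries, 16.5%, 13.7% and 13.5% in mfn2-/-, 18.97%, 8.85% and 10.7% in vhl-/-, and 8.33%, 11.5% and 13.3% in HIF1dPA. The share of other peaks was between 0.494% and 1.26% in all 12 libraries, so the ranges did not meet. On average 12.6% of zinc finger peaks and 0.850% of other peaks of a library lay in a last exon, a difference of 11.7 percentage points (SD 3.26, n = 12). The difference was positive in 12 of 12 libraries (exact sign permutation test, two-sided, p = 0.000488, the smallest it can give; adjusted p = 0.000977 over 4 such tests).

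Of the 244 zinc finger peaks in any exon, 192 (78.7%) were in the last one, compared with 116 of 288 exon peaks (40.3%) elsewhere. The exon was the assigned gene's own in 191 of the 192. Last exon or 3' UTR peaks were found at 72 of the 140 genes and promoter peaks at 38, with 18 genes in both groups. Intergenic peaks made up 37.7% of zinc finger peaks and 66.1% of other peaks. Introns held 16.5% of zinc finger peaks.

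**Figure D1:**
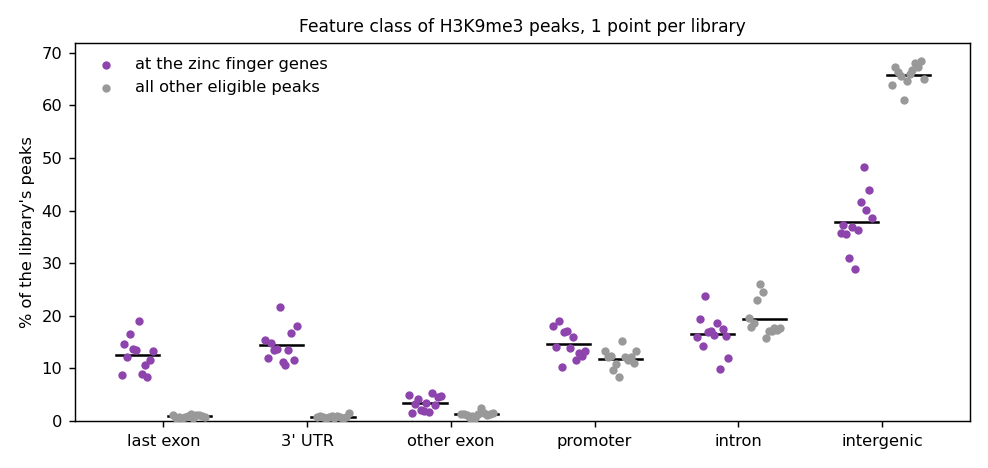
Share of each library's H3K9me3 peaks (%, y axis) in 6 feature classes (x axis), with 1 point per library (12 per set) and a bar at the mean, for zinc finger peaks and all other eligible peaks. The last exon and 3' UTR points of zinc finger peaks lie above all points of other peaks (means 12.6% and 0.850% for the last exon), and the intergenic points lie below them.

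The promoter class behaved differently from the last exon class. Promoter peaks, which in the authors' annotation reach 3 kb from a transcript start, made up 14.6% of zinc finger peaks and 11.8% of other peaks of a library on average. The difference of 2.77 percentage points (SD 3.17, n = 12) was positive in 10 of 12 libraries (exact sign permutation test, p = 0.0107, adjusted p = 0.0107). It turned to -0.556 points when only peaks within 1 kb of a start were counted (exact permutation test, adjusted p = 0.390), to -0.0420 when each list was cut to its 887 strongest peaks (adjusted p = 0.980), and to -8.20 points when only scores of 100 or more were kept (adjusted p = 0.0391).

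Positions along the RefSeq gene showed where these promoter peaks lay. Of 183 promoter-class zinc finger peaks at genes with a known strand, 1 was centred within 1 kb of the gene's start, and 90 (49.2%) were centred within 5 kb of its end. Their median position was 72.4% of the way through the gene, with a median of 13.4 kb from the start. Among 795 promoter-class peaks elsewhere, 88 (11.1%) were centred within 1 kb of the RefSeq start. The authors' classes refer to Ensembl transcripts and the positions here to the whole RefSeq gene, so the class names and the positions need not match.

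A total of 1046 zinc finger peaks (67.4%) overlapped the RefSeq gene they were assigned to. The others had a median gap of 22.2 kb to it. Of 923 peaks centred inside a gene with a strand, 257 (27.8%) fell in bin 10 of 10 equal bins from start to end and 212 (23.0%) in bin 9, while 6 (0.650%) fell in bin 1 and 8 (0.867%) in bin 2. Bins 9 and 10 together held 42.9% to 55.8% of these peaks in every library (median 51.9%) and bins 1 and 2 held 0% to 6.52%. Of other peaks, 18.4% to 25.4% per library lay in bins 9 and 10 and 11.04% to 19.2% in bins 1 and 2. The ranges over libraries did not overlap at either end of the gene. Since 19 of the 140 genes had no strand in the tables, their peaks have no position here.

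**Figure D2:**
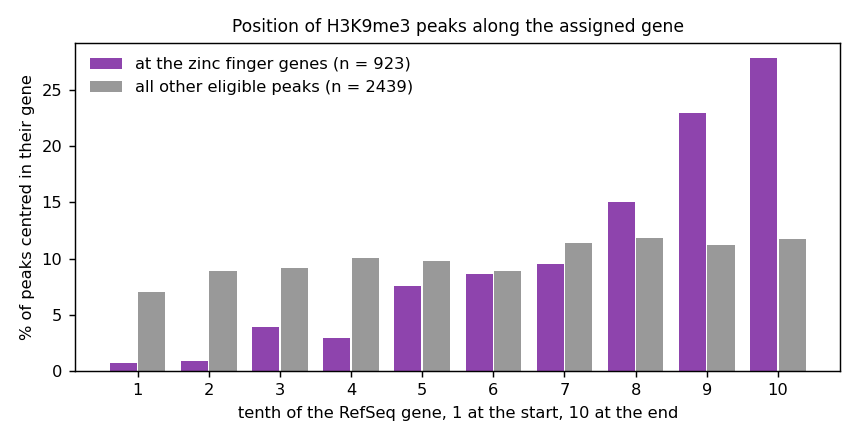
Share of peaks (%, y axis) centred in each of 10 equal bins of their RefSeq gene (x axis, from start to end), pooled over 12 libraries, for 923 zinc finger peaks and 2439 other peaks. Zinc finger peaks go from 0.650% in bin 1 to 27.8% in bin 10, and other peaks stay between 7.05% and 11.8%.

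Zinc finger peaks were slightly wider than other peaks. Their median width per library was 599.5, 632 and 601 bp in wild-type, 658, 655 and 605 bp in mfn2-/-, 606, 630 and 687.5 bp in vhl-/-, and 706.5, 666 and 631 bp in HIF1dPA. Other peaks had medians of 572 to 615 bp. The median was larger for zinc finger peaks in 12 of 12 libraries, by 1.07-fold on average (640 and 595 bp; exact sign permutation test, p = 0.000488, adjusted p = 0.000977). With scores of 100 or more the ratio was 0.938 (exact permutation test, adjusted p = 0.167). Peaks of 2000 bp or more were 22 of 1551 zinc finger peaks (1.42%) and 569 of 13712 other peaks (4.15%). By class, median widths were 694.5 bp in last exons, 683 bp in 3' UTRs, 650 bp in promoters, 626 bp in intergenic peaks and 595.5 bp in introns.

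The 3 widest zinc finger peaks were all intergenic and all in the same 0.193 Mb block on chromosome 17. The widest, assigned to Zfp960, spanned 3480 bp in vhl-/- replicate 3 (chr17:17038537-17042016), with a score of 259. A Zfp97 peak of 2728 bp followed in HIF1dPA replicate 3 (chr17:17203783-17206510) and a Zfp960 peak of 2638 bp in HIF1dPA replicate 1 (chr17:17039004-17041641). The widest other peak covered 31076 bp.

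By score, zinc finger peaks ranked above other peaks of the same list in most libraries. Their median percentile within the list (100 is the strongest) was 54.8 on average and that of other peaks 44.8. The difference of 10.0 points (SD 6.01) was positive in 11 of 12 libraries (exact sign permutation test, p = 0.000977, adjusted p = 0.00130). The exception was HIF1dPA replicate 2, with 43.6 and 44.4. Zinc finger peaks made up 8.05% of eligible peaks in the weakest of 10 equal bins of the lists, 16.3% in bin 9 and 13.1% in the strongest. Scores of 200 or more were reached by 14 zinc finger peaks (0.903%) and by 281 others (2.05%). The highest score was 299.89 at a zinc finger gene and 3100 elsewhere. Ranked only among peaks scoring 100 or more, zinc finger peaks stood 20.4 percentile points below the others (exact permutation test, adjusted p = 0.00195), the opposite direction.

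**Figure D3:**
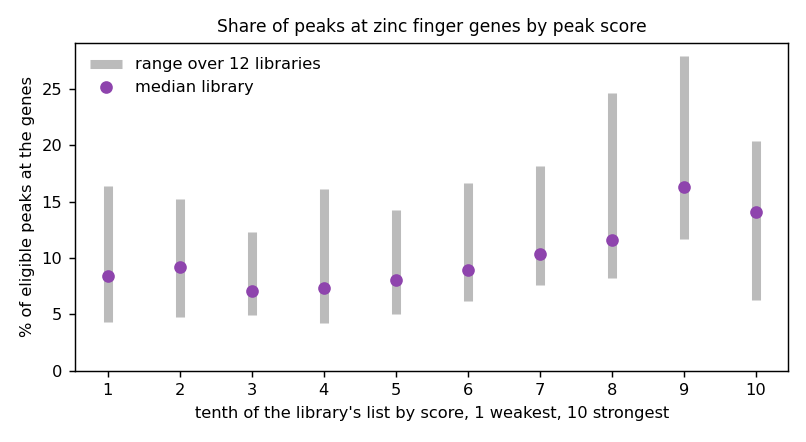
Share of eligible H3K9me3 peaks at the zinc finger genes (%, y axis) in 10 equal bins of the library's list ranked by score (x axis, 1 weakest, 10 strongest), with points at the median library and bars over the range of 12 libraries. The median library stands at 8.44% in bin 1, 16.3% in bin 9 and 14.1% in bin 10, and the ranges of neighbouring bins overlap.

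Whether the mark at these genes differed between genotypes was asked next, since the study set wild-type myofibers beside genotypes with high HIF1α. Wild-type libraries held 182, 191 and 189 zinc finger peaks. There were 97, 95 and 111 in mfn2-/-, 116, 113 and 112 in vhl-/-, and 132, 130 and 83 in HIF1dPA libraries. All 9 mutant libraries were below all 3 wild-type libraries. The means were 187 ± 4.73, 101 ± 8.72, 114 ± 2.08 and 115 ± 27.7 (SD, n = 3 each), and mutants had 0.581 times the wild-type number (exact permutation test, two-sided, p = 0.00455, the smallest for 3 against 9; adjusted p = 0.0242 over 16 tests). The 4 genotypes differed with p = 0.0114 (exact permutation test, adjusted p = 0.0377). Pairs of genotypes, 3 libraries against 3, cannot give a p below 0.1. Without wild-type replicate 1 or 3 these calls were not made (exact permutation test, adjusted p = 0.0582), and the call over 4 genotypes was also not made without mfn2-/- replicate 1 or 2 (adjusted p = 0.0505). For mutants against wild-type, a smaller wild-type group raises the smallest p the test can give. The lost call therefore does not show that the difference rests on those replicates. The ratio stayed at 0.567 to 0.601 whichever library was left out.

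Numbers of genes and covered length were also lower in all 9 mutant libraries than in all 3 wild-type libraries. Wild-type libraries had peaks at 68, 74 and 75 genes, mfn2-/- at 55, 46 and 52, vhl-/- at 53, 50 and 50, and HIF1dPA at 55, 56 and 49. Mutants had 0.715 times the wild-type number of genes and 0.605 times the covered length, which averaged 136 kb in wild-type and 74.6 to 90.5 kb in the mutants (exact permutation tests, p = 0.00455 and adjusted p = 0.0242 for both). These calls too were not made without wild-type replicate 1 or 3 (exact permutation test, adjusted p = 0.0582). Here too a smaller wild-type group raises the smallest p the test can give.

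These numbers moved with the length of the whole lists. Wild-type lists had 3027 ± 146 H3K9me3 peaks (SD, n = 3). The lists of mfn2-/- had 1189 ± 306, those of vhl-/- 1252 ± 153 and those of HIF1dPA 1531 ± 261. As a share of eligible peaks, zinc finger peaks were 9.45%, 8.77% and 9.39% in wild-type and 10.7%, 14.0% and 9.30% in mfn2-/- libraries. Those of vhl-/- had 14.0%, 12.4% and 10.4%, and those of HIF1dPA 10.2%, 9.72% and 9.002%. The share was 1.88 percentage points higher in mutants, which did not pass the test (exact permutation test, p = 0.114, adjusted p = 0.182). With 887 strongest peaks in every list, mutants had 1.16 times as many zinc finger peaks as wild-type (exact permutation test, p = 0.168, adjusted p = 0.555), the opposite direction. The cut left unequal numbers of eligible peaks, 541, 537 and 523 in wild-type and 610 to 692 in the mutants. As a share of these, zinc finger peaks differed by -0.291 points in mutants. With scores of 100 or more, the mutants had 0.399 times the wild-type number of peaks, 0.434 times the genes and 0.454 times the covered length (exact permutation tests, adjusted p = 0.0242, 0.0242 and 0.0291). Eligible peaks at this cutoff were also fewer in every mutant library (57 to 91) than in any wild-type library. As a share of these, zinc finger peaks were 14.9%, 14.8% and 10.4% in wild-type and 9.38% to 21.1% in the mutants, which overlap. No loss particular to strong zinc finger peaks is therefore read. The lower number in mutants and the shorter lists cannot be told apart from depth, which is unknown.

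**Figure D4:**
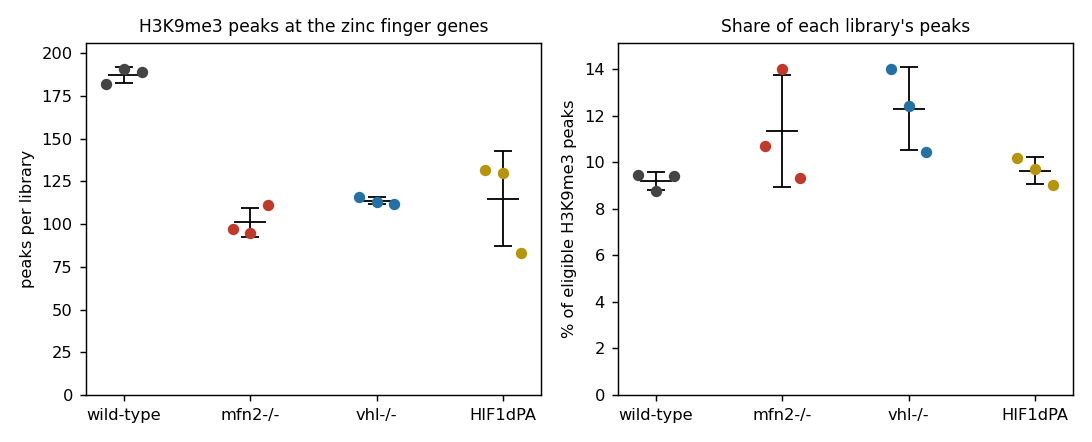
Zinc finger H3K9me3 peaks per library (left, count) and as a share of the library's eligible peaks (right, %), by genotype, with 1 point per library and bars for the mean and SD (n = 3). The 3 wild-type libraries hold 182 to 191 peaks and the mutants 83 to 132, whereas the shares overlap between wild-type and the mfn2-/- and HIF1dPA genotypes.

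Feature class, width and rank of the zinc finger peaks did not pass a test between genotypes. The last exon share averaged 11.9% ± 2.95 in wild-type and 14.6% ± 1.67 in mfn2-/- libraries, 12.8% ± 5.38 for vhl-/- and 11.04% ± 2.497 for HIF1dPA (SD, n = 3; exact permutation test over 4 genotypes, p = 0.644, adjusted p = 0.784). The promoter share was 17.1% ± 2.61, 14.8% ± 3.85, 13.8% ± 2.16 and 12.8% ± 0.476 in the same order. The difference of mutants from wild-type was -3.32 points (exact permutation test, p = 0.0682, adjusted p = 0.156), and with the windows kept the difference was -3.97 points (exact permutation test, adjusted p = 0.0184). Without wild-type replicate 2 it was -4.81 points (exact permutation test, adjusted p = 0.0485). It was larger, but did not pass, with scores of 100 or more (-9.94 points, exact permutation test, adjusted p = 0.371) and with 887 strongest peaks per list (-8.42 points, exact permutation test, adjusted p = 0.255). Median width was 1.06 times the wild-type value in mutants (exact permutation test, p = 0.0818, adjusted p = 0.164), and the score percentile differed by -0.195 (p = 0.964).

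Presence was then compared region by region, after overlapping peaks of all libraries had been merged into 641 zinc finger regions. As a description with no test, 21 zinc finger regions (3.28%) were found in 9 or more libraries, and 70 of 10201 other regions (0.686%). A single library accounted for 395 zinc finger regions (61.6%) and for 87.6% of the others. Few regions separated genotypes. Regions in all wild-type and no mfn2-/- library were 4 of 438 (over all eligible regions, 1.62%). For vhl-/- there were 4 of 469 (0.948%) and for HIF1dPA 5 of 481 (0.877%). The reverse held for 2 regions in mfn2-/- (0.22%), 1 in vhl-/- (0.193%) and 1 in HIF1dPA (0.189%). In all 3 wild-type and none of the 9 mutant libraries there were 0 of 641 (0.286%), and 0 in the reverse direction (0%). In the wild-type direction the shares at zinc finger genes were 0.913%, 0.853% and 1.04%, near or below those over all regions. Over all 6 pairwise comparisons 17 zinc finger calls were made, and leaving out a wild-type library raised them to 45, 53 and 48 (replicates 1, 2 and 3), since fewer libraries had to hold a peak.

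The separating regions were in several classes, named here by the authors' annotation. Of the 17 calls, 7 were in a last exon or 3' UTR. Of all 1551 zinc finger peaks, 12.4% were in a last exon and 14.2% in a 3' UTR. These shares count peaks and not regions, and no test was made. No concentration of the calls at 3' ends is therefore read. Separating regions in wild-type and not in mfn2-/- lay at Zfp825 (intergenic), Zfp976 (intron), Zfp975 (last exon) and Zfp810 (3' UTR). Those in wild-type and not in vhl-/- lay at Zfp935 and Zfp945 (introns) and at Zfp932 and Zfp180 (3' UTRs). Those in wild-type and not in HIF1dPA lay at Zfp873 and Zfp825 (intergenic), Zfp935 and Zfp119a (last exons) and Zfp976 (intron). The reverse regions lay at Zfp97 (intron) and Zfp946 (last exon) in mfn2-/-, at Zfp110, a gene for a partner of the p75 neurotrophin receptor, in vhl-/- (exon), and at Zfp808 in HIF1dPA (intergenic). Among peaks of the genotype that had to hold the region, the highest score was 223, at Zfp873 in wild-type. The mfn2-/- replicate 1 peak with a score of 299.89 lies in the same Zfp873 region, which was called only against HIF1dPA. The Zfp825 and Zfp976 regions were each called against both mfn2-/- and HIF1dPA.

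The same comparison by gene gave 7 calls. Zfp810 and Zscan4d were listed in the 3 wild-type libraries and absent from those of mfn2-/-, 2 of 122 genes beside 5.19% over all genes. Zfp180, Zfp37 and Zfp932 were called against vhl-/- (3 of 116, beside 3.38%), and Zfp146, which encodes a protein made of zinc fingers with no KRAB domain, against HIF1dPA (1 of 123, beside 2.56%). The 8 Zscan4d peaks of all libraries lay in 8 different regions, all intergenic. No separating region was listed above for Zscan4d, Zfp37 or Zfp146. In the reverse direction no gene was called for mfn2-/- (0.611% over all genes) or vhl-/- (0.487%), and Zfp804b was for HIF1dPA (0.596%). No gene was in all wild-type and none of the mutant libraries (1.2% over all genes) or the reverse (0%). In the pairwise wild-type directions the shares at zinc finger genes (1.64%, 2.59% and 0.813%) were below those over all genes. Leaving out a library gave 8 to 17 calls, with 17, 16 and 12 without wild-type replicates 1, 2 and 3 and 14 without mfn2-/- replicate 1.

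The scores of the called genes are given for 4 of them. Zfp810 had its strongest peak at 78.9, 92.2 and 95.5 in wild-type, with 57.8, 71.4 and 62.8 for vhl-/- and 65.6, 50.7 and 50.5 for HIF1dPA. All 3 wild-type values were above all others. Zfp180 had its strongest peak at 146, 95.2 and 65.0 in wild-type, none in vhl-/- or mfn2-/- replicate 1, 66.2 and 59.1 in the other mfn2-/- libraries, and 109 and 128 in HIF1dPA replicates 1 and 2. The wild-type values overlap those of both mfn2-/- and HIF1dPA, and the mfn2-/- values lie below those of HIF1dPA. Zfp932, a KRAB gene known to repress endogenous retroviruses, reached 64.1, 109 and 60.1 in wild-type, 86.1, 78.1 and 65.8 in mfn2-/- and 83.1 in HIF1dPA replicate 2, with none in the remaining 5 libraries. Zfp804b, a gene for a protein with a single finger and no KRAB domain, scored 55.0, 52.2 and 61.4 in HIF1dPA, close to the cutoff of 50, at 3 different places in or near the gene.

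Of 387 RefSeq genes with a name of this kind outside the windows, 140 (36.2%) had a peak in at least 1 library. For 37 of the 140 (26.4%) all peaks lay outside the RefSeq gene. The 140 genes were found in a median of 3 libraries, 35 (25%) in 9 or more and 41 (29.3%) in 1. Of 4289 other genes with an eligible peak, 115 (2.68%) were found in 9 or more. In every genotype there was a peak for 46 genes. Genes differ in length and in how many peaks they hold, so this is a description. Zscan, Zkscan and Zik genes gave 9 of the 140 genes and 38 peaks.

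A peak was listed in all 12 libraries for 14 genes: Zfp960, Zfp97, Zfp936, Zfp873, Zfp944, Zfp81, Zfp808, Zfp942, Zfp945, Zfp937, Zfp825, Zfp934, Zfp935 and Zfp951, in order of the mean percentile of their strongest peak. No specific role is given here for these genes, which are named from their zinc fingers. Zfp960 led with a mean percentile of 92.2. Its strongest score was 133, 128 and 108 in wild-type, 103, 174 and 163 in mfn2-/-, 77.2, 97.0 and 259 in vhl-/-, and 237, 141 and 101 in HIF1dPA. The groups overlap, and vhl-/- held both the lowest and the highest library. Its leading region (chr17:17037406-17043239) was found in 12 of 12 libraries, and its peaks had a median gap of 22.6 kb to the RefSeq gene. Zfp97, its neighbour, scored 98.2, 116 and 112 in wild-type, 110, 105 and 116 in mfn2-/-, 109, 118 and 109 in vhl-/-, and 122, 202 and 188 in HIF1dPA. The 3 HIF1dPA libraries were the highest of the 12. The scores depend on each library's depth, and no test was made of single genes.

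At several genes the recurring region covered the 3' end. For Zfp808 it lay at chr13:62170914-62174893 in 11 libraries, with 6 last exon and 8 3' UTR peaks among 16, at a median of 97.8% of the way through the gene. For Zfp81 it lay at chr17:33332615-33337061, also in 11 libraries, with 4 and 11 of 16 peaks in these classes. For Zfp97 it lay at chr17:17143255-17148713 in 11 libraries, at 94.0% of the gene. For Zfp944 it lay at chr17:22339037-22342579 in 11 libraries, at 89.7%, and for Zfp942 at chr17:21925472-21928764 in 10, at 98.2%. These 5 regions came from chromosomes 13 and 17.

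Other recurring regions carried the promoter class. The Zfp936 region at chr7:43187761-43192135 had 11 promoter peaks among 13 in 11 libraries and stood at a median of 97.6% of the way through the RefSeq gene. This position counts from the start of the RefSeq gene at chr7:43114166, which lies before the start window shown for Zfp936. The Zfp934 region at chr13:62516273-62520681 was found in 12 libraries with 13 promoter peaks among 18, but the gene has no strand in the tables. The Zfp950 region at chr19:61117020-61120525 had 14 promoter peaks of 14 in 10 libraries, at 24.6% of the gene. Zfp958 on chromosome 8 had 11 promoter and 4 last exon peaks among 19 at 80.7%, in 10 libraries. Zfp68 had 20 peaks in 9 libraries, all of the promoter class.

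Zfp936 and Zfp873 had high scores in wild-type. Zfp936 scored 266, 147.6 and 212 in wild-type, 96.5, 87.8 and 53.9 in mfn2-/-, 174, 95.9 and 89.7 in vhl-/-, and 141, 169 and 180 in HIF1dPA. The mfn2-/- libraries lie below the wild-type and HIF1dPA libraries and overlap those of vhl-/-. Zfp873 on chromosome 10 scored 174, 202 and 223 in wild-type and 300, 100 and 114 in mfn2-/-. It scored 65.0, 124 and 75.3 in vhl-/- and 130, 63.1 and 58.6 in HIF1dPA, all below wild-type. The highest score of all zinc finger peaks, 299.89, was the one in mfn2-/- replicate 1.

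Zfp808 had unequal numbers of peaks between libraries. It had 3, 3 and 8 in wild-type, 4, 1 and 2 in mfn2-/-, 11, 13 and 17 in vhl-/-, and 10, 13 and 8 in HIF1dPA. The vhl-/- libraries are above all wild-type libraries, and the mfn2-/- libraries overlap those of wild-type at the low end. Zfp944, by contrast, had 6, 6 and 5 peaks in wild-type, 4, 8 and 5 in mfn2-/-, 3, 8 and 2 in vhl-/-, and 8, 2 and 2 in HIF1dPA, and these groups overlap.

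The other genes among the 25 named by recurrence were Zfp781, Zfp943, Zfp938, Zfp110, Zfp946 and Zfp994 (11 libraries each) and Zfp930, Zfp975, Zfp950, Zfp329 and Zfp958 (10 each). Zfp994 had its strongest peak between 51.3 and 103, with all 3 vhl-/- libraries (103, 96.1 and 96.4) above the others. How many of the 25 genes set a genotype apart in this way was not counted, so such single genes are description only. Zfp975 had last exon or 3' UTR peaks in each of its 10 libraries, with 1 mfn2-/- library among them. Zfp930 reached 205 and had 14 promoter peaks of 20. Zfp825 differed in place from most genes, with all 31 peaks intergenic.

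**Figure D5:**
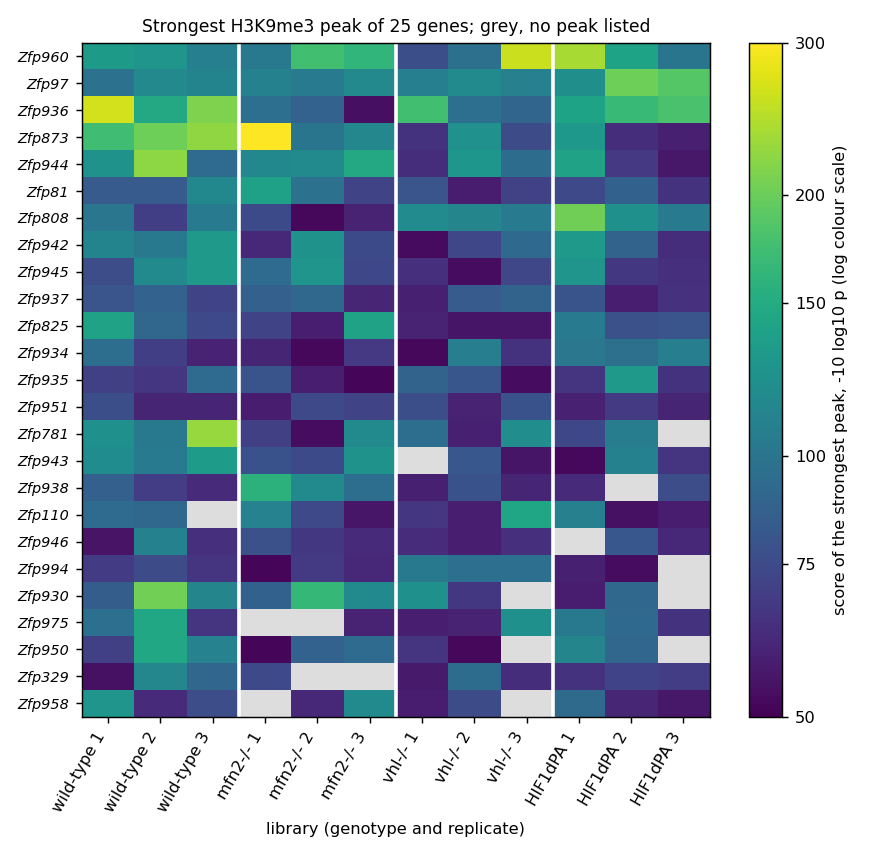
Score of the strongest H3K9me3 peak (-10 log10 p, log colour scale) for the 25 genes found in most libraries (rows, in rank order) in each of 12 libraries (columns, grouped by genotype), with grey where no peak was listed. The first 14 rows have no grey cell, and the highest cell is Zfp873 in mfn2-/- replicate 1 (299.89).

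The blocks of neighbouring genes are given by their peaks per library and, because mutant lists were shorter, by their share of the library's zinc finger peaks. The block with most peaks, chr17:21026626-23180539, held 313 peaks of 16 genes, with 39, 40 and 35 in wild-type and 11 to 31 in the mutants. Its share was 18.5% to 21.4% in wild-type and 13.3% to 32.6% in the mutants, and these overlap. The block of Zfp808, Zfp934 and Zfp935 (chr13:62093694-62520681, 142 peaks) had 7, 10 and 13 peaks in wild-type, 6, 4 and 4 in mfn2-/-, 16, 17 and 21 in vhl-/-, and 15, 18 and 11 in HIF1dPA. Its share was 3.85%, 5.24% and 6.88% in wild-type and 6.19%, 4.21% and 3.604% in mfn2-/- libraries. It ranged from 13.8% to 18.75% in the vhl-/- genotype and from 11.4% to 13.8% in HIF1dPA. By share, mfn2-/- overlapped wild-type, and all vhl-/- and HIF1dPA libraries were above both. The block of 7 genes around Zfp936 and Zfp975 (chr7:41648159-43266857, 109 peaks) had 11, 13 and 19 peaks in wild-type, 2, 3 and 3 in mfn2-/-, 10, 10 and 7 in vhl-/-, and 13, 7 and 11 in HIF1dPA. The mfn2-/- libraries were below all 9 others, also by share (2.06% to 3.16%, and 5.38% to 13.3% in the others). The block of Zfp960 and Zfp97 (chr17:17019831-17213025, 147 peaks) had 10, 7 and 12 peaks in wild-type and 8 to 16 in the mutants. These numbers overlap, whereas the share was 5.49%, 3.66% and 6.35% in wild-type and higher in all 9 mutant libraries (9.01% to 15.8%). These blocks were picked from 62 after the data were seen, and the values carry no test. How many of the 62 set a genotype apart was not counted. The block of Zfp433, Zfp781, Zfp873 and Zfp938 had shares of 11.1% to 13.6% in wild-type and 7.23% to 9.09% in HIF1dPA. The block that holds Zfp110 had 6.35% to 8.24% in wild-type and 2.11% to 5.15% in mfn2-/-. In the blocks that hold Zfp81 and Zfp937 the shares of all genotypes overlapped.

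Zinc finger exons of neighbouring genes resemble each other, and how the authors placed reads that match several copies is not given in the sources used here. A peak in a cluster may therefore hold reads of a near copy, and single genes within a block are uncertain.

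Among 12 genes fixed for a known role, 6 had an H3K9me3 peak. Zfp932 had the most peaks, 15 in 7 libraries. Zscan4c, of a family active in the early embryo, had 6 intergenic peaks in 4 libraries. Zfp445, a regulator of genomic imprinting, had 1 peak in each of 2 wild-type libraries, and Zfp809, which silences retroviruses through their primer binding site, had 1 exon peak in 1 HIF1dPA library. Zfp708 (2 libraries) and Zfp759 (8 libraries) had peaks only inside the excluded windows. The other 6 (Zfp57, also a regulator of imprinting, Zfp568, Zfp42, Zkscan1, Zkscan3 and Zik1) had none. Of 7 genes called Zfp that are not of the KRAB type (Zfp36, Zfp106, Zfp148, Zfp281, Zfp423, Zfp521 and Zfp703), only Zfp521 had a peak, 1 intergenic peak in 1 library with a score of 51.4. Outside the windows 140 of 387 RefSeq genes of these names (36.2%) had a peak. Both lists are short, so no preference for a gene type is read from them. Of 22 genes of the H3K9me3 machinery, Atf7ip, a partner of SETDB1, had intron peaks in 6 libraries and Setdb1 had 1 intergenic peak. Over all other genes with a start window, 2226 of 25301 had an H3K9me3 peak, so nothing particular to the machinery is read from these.

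H3K27me3, the Polycomb mark, was also looked up at genes of these names. Its 12 lists held 160 peaks at 66 such genes, of 30942 on the same chromosomes outside the windows (0.517%). Of these, 65 (40.6%) were of the promoter class and 1 (0.625%) was in a last exon. Of the 30782 H3K27me3 peaks at other genes, 50.4% were of the promoter class and 0.806% in a last exon. None of the 160 overlapped an H3K9me3 peak of any library, compared with 292 (0.949%) of the others, so nothing particular to these genes is read from it. A peak of each mark was found at 25 of the 66 genes (37.9%), near the 36.2% of all 387 such names that had an H3K9me3 peak. Of the 35 genes recurring in 9 or more H3K9me3 libraries, 4 (11.4%) had an H3K27me3 peak, beside 66 genes over all names of this kind, of which RefSeq lists 387. No link between the marks is read from these counts. Zfp804a (9 libraries, 15 of 19 peaks at the promoter) and Zfp618 (9 libraries, 10 of 12) led this list, and had H3K9me3 peaks in 1 library and in none.

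Peaks at the 32 genes inside the excluded windows were of another shape. Their pooled median width was 1069 bp, compared with 633 bp at the genes outside, and 220 of 1209 (18.2%) were 2000 bp or wider. Last exons held 3.89% and 3' UTRs 7.69% of them, compared with 12.4% and 14.2% outside. These values are descriptions over peaks, with no test.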

How the data were processed

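H3K9me3 and H3K27me3 ChIP-seq peak lists of 24 libraries (4 genotypes, 2 marks, 3 replicates each) were used, and 1 input library was not analysed here. The antibodies were Abcam ab8898 and ab6002, used on formaldehyde-fixed (1%) chromatin of about 500 bp fragments. The authors deposited a separate list for each library, with no pooling of replicates. The deposited score is -10 times the log10 of the caller's p-value and starts at 50. The submitters' processing notes name BWA 0.7.5, MACS and deepTools 3.5.0 and the build mm10, without roles. Duplicate handling, use of the input and depth are not given in the sources used here, and a score grows with depth.

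Zinc finger peaks were chosen by gene name, leaving out chromosome 2 from 175 to 178.5 Mb, chromosome 4 from 145 to 148 Mb and chromosome 13 from 65 to 68 Mb. The members and all gene lists were chosen with earlier results of these data known. Last exon means exon n of n in the authors' annotation. Positions used RefSeq genes of GRCm38.p6; all 140 gene symbols matched and 121 had a strand. Positions are 1-based as in the lists.

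Genotypes were compared over libraries with exact permutation tests: 4 genotypes by the between-group sum of squares (369600 arrangements) and 3 wild-type against 9 mutant libraries (220 arrangements, two-sided), on the log2 scale for numbers, lengths and widths. Zinc finger and other peaks were compared within libraries by exact sign permutation (4096 arrangements). P-values were adjusted by Benjamini-Hochberg over 16 and over 4 tests, with a threshold of 0.05. Ratios are ratios of geometric means. Named genes are the 25 found in most libraries (ties by mean percentile of the strongest peak), genes in all libraries of 1 genotype and none of wild-type or the reverse, the 3 widest peaks and 2 fixed lists. Zfp68, Zfp804a, Zfp618, Zfp119a and Zfp976 were named after their values were seen. Alternatives are in the closing section. The tests were checked on simulated data with known answers. The scripts ran under Python 3.11.15 with matplotlib 3.10.9, pandas 2.3.3 and numpy 2.4.6.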

Additional observations from a re-analysis of the deposited data

How the results depend on the processing

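All p-values here are from exact permutation tests. Leaving out 1 library at a time kept all 4 comparisons of zinc finger with other peaks: the last exon difference was 11.2 to 12.1 points, the promoter difference 2.23 to 3.14 points, the width ratio 1.067 to 1.079 and the percentile difference 9.28 to 10.98. The mutant to wild-type ratios were 0.567 to 0.601 for peaks, 0.694 to 0.729 for genes and 0.586 to 0.627 for covered length, and these 3 passed the adjusted threshold except without wild-type replicate 1 or 3 (exact permutation test, adjusted p = 0.0582). A smaller wild-type group raises the smallest p this comparison can give. Over 4 genotypes the p-values were 0.000130 to 0.0180 for peaks, 0.00623 to 0.0175 for genes and 6.49e-05 to 0.0474 for covered length. Over 4 genotypes the peak and gene numbers were not called without wild-type replicate 1 or 3 either, and the peak number also not without mfn2-/- replicate 1 or 2 (exact permutation test, adjusted p = 0.0505). The covered length was called only without 1 of vhl-/- replicate 3 or the 3 HIF1dPA replicates. The promoter share difference between mutants and wild-type was -4.81 to -2.35 points and was called without wild-type replicate 2 (-4.81, exact permutation test, adjusted p = 0.0485). The last exon difference was -0.598 (without wild-type replicate 1) to 2.34 points, and the percentile difference -3.23 to 2.69, positive without wild-type replicate 2 (2.69), mfn2-/- replicate 2 (0.492), vhl-/- replicate 1 (0.214) or HIF1dPA replicate 2 (1.19). Separating regions numbered 20 to 53 and genes 8 to 17, since fewer libraries had to have or lack them, compared with 17 and 7.

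With the strongest 887 peaks per list, p over 4 genotypes was 0.277 for peaks, 0.277 for genes and 0.982 for covered length. The mutant to wild-type ratios were then 1.16, 1.02 and 0.995, the share of peaks differed by -0.291 points, the last exon share by -2.45 points, width by a ratio of 0.840 and percentile by 1.60. The promoter difference of zinc finger from other peaks was -0.0420, with 11 regions and 2 genes separating genotypes. With scores of 100 or more, covered length had p = 0.0224 over 4 genotypes (exact permutation test, adjusted p = 0.0597), the last exon share was 2.23 points lower in mutants (-2.23), and the promoter, width and percentile differences from other peaks were -8.20 points, a ratio of 0.938 and -20.4, with 4 regions separating. With the windows kept, the promoter share differed over 4 genotypes (exact permutation test, p = 0.0179) and by -3.97 points in mutants, with 87 regions separating. Counting promoters up to 1 kb gave -0.556 points. The cause of these changes was not tested.

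The replicate numbers did not pair the libraries: the correlation of same-numbered libraries was -0.0369 to 0.0396. With the replicate number as a block, the exact permutation p was 0.0399 for peaks, 0.0521 for genes and 0.0486 for covered length over 4 genotypes, and 0.0156 for the mutant to wild-type ratios of 0.581, 0.715 and 0.605, none passing after adjustment (lowest adjusted p = 0.0833), as fewer arrangements are possible. Joining peaks within 1000 bp, using Zfp names alone, adding 3' UTRs to the last exon or keeping only the assigned gene's exon changed no call. Depth is unknown and limits all statements on absent peaks.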
